A study of Sus scrofa with 34 samples.

Results

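NNAT encodes neuronatin, a small proteolipid of the endoplasmic reticulum membrane. The gene is imprinted in mammals and is transcribed from the paternal copy, and it lies inside an intron of BLCAP, a gene read in the opposite direction. Neuronatin is best known from the developing brain, the insulin-secreting cells of the pancreas and adipose tissue, where it has been linked to the filling of the endoplasmic reticulum with calcium and to the cutting of signal peptides from secreted proteins. The expression of NNAT was followed in the liver and ileum of weaned piglets, as 1 row (ENSSSCG00000007336) of the 25880 genes counted. BLCAP was to serve as a check on the neighbourhood, but its identifier was found in 0 rows of the count files, so BLCAP is not analysed here. NNAT was chosen by its measured counts in the livers of pigs fed oxidized oil, against Control and against the oil with PFA. The values of the oil diets are therefore given as a description, without a test.

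The pigs were crossbred piglets sampled after 28 days on a diet. The label d28, given as an age, is the day of the trial, which began after weaning, so the pigs were older than 28 days. The Control group received a basal diet, and the PFA group the same diet with a phytogenic feed additive, a blend whose ingredients include oregano and caraway oils, carvacrol and menthol. The OO group received a diet to which rapeseed oil heated for a long time in a fryer was added to bring on oxidative stress, and the OO + PFA group received both additions. The oxidized oil came on top of nearly the same small amount of fresh oil, so the oil diets also held more fat and energy, which cannot be told apart from oxidation. Liver RNA was sequenced from 24 pigs, 6 per diet, and ileum RNA from 10 of the pigs of the Control and PFA groups, 5 per diet. Each diet was fed in a single pen, so diet and pen cannot be told apart, and the p-values below measure the spread between pigs. One OO + PFA liver, pig 77, was left out of the fits. Its 10 most abundant genes took 48.3% of the read pairs, against 23.8% to 26.8% in the other livers of that diet. The other 23 livers and the 10 ilea had between 18772230 and 42446834 read pairs on genes. Pigs are named by diet (C, P, OO and OP for OO + PFA) and number.

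The identity of the row rests on the sequences of the NNAT primers that the study used for quantitative PCR, which are listed under the same identifier. Both were found once on chromosome 17 of Sscrofa11.1, on opposite strands and facing each other. They are shown because they place this identifier at the NNAT locus, although they do not show which RNA was counted:
NNAT forward primer: actcgctctcaaccaccaac
NNAT reverse primer: ctgtgtccctggaggatttc
The forward primer (chr17:40627162-40627181, plus strand) reaches the curated RefSeq transcript, whose first exon starts at 40627180, only with its last bases. It lies whole inside the first exon of the predicted RefSeq models. The reverse primer (chr17:40628253-40628272, minus strand) lies in the second coding exon. The product spans 1111 bases of the genome and 172 bases of spliced RNA in a predicted RefSeq model. This is slightly under the amplicon size that the study lists. Neither primer touches an exon of BLCAP.

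RefSeq places NNAT at chr17:40625990-40629523 on the plus strand, inside BLCAP at chr17:40603977-40633613 on the minus strand. The exons of the 3 NNAT transcript models share 0 bases with the BLCAP exons. The nearest BLCAP exons lie 707 bases before and 3977 bases after NNAT. The curated NNAT transcript has 3 exons. Splice forms are known for neuronatin. The counts are per gene, so none of the values below belongs to a single splice form. The libraries were made with a stranded kit, but the strand option of the counting was not given in the sources used here. If strand was ignored, unspliced BLCAP RNA read across NNAT cannot be told apart from NNAT.

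In the liver of Control pigs NNAT was close to the lower limit of what could be counted. Values are CPM, the read pairs on the gene per 1000000 read pairs on all genes, with library sizes scaled within each tissue. The Control livers had from 0 to 13 NNAT read pairs, with a median CPM of 0.150, a lowest value of 0 in pig C-71 and a highest of 0.317 in pig C-85. The limit of counting was taken as 3 read pairs, which correspond to between 0.0707 and 0.160 CPM in the libraries, and 2 of the 6 Control livers were at or under this limit. The mean was 0.154 ± 0.111 CPM (SD, n = 6).

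The livers of PFA pigs were also near this limit. They had from 1 to 6 read pairs, with a lowest value of 0.0375 CPM, a median of 0.0708 and a highest of 0.225, and 4 of the 6 livers were at or under the limit of 3 read pairs. The mean was 0.112 ± 0.0797 CPM (SD, n = 6), inside the range of the Control livers. PFA against Control is another contrast than those that chose NNAT and was tested, although the Control livers belong to both. NNAT passed the filter on low counts in this fit only through the oil-fed livers. The log2 fold change was -0.59 (SE 0.57, adjusted p = 0.722, quasi-likelihood test of edgeR, Benjamini-Hochberg adjustment over 13831 genes). An exact permutation test over the pigs gave p = 0.606 (two-sided). Over all genes, 0 passed the adjusted threshold of 0.05 in this comparison by edgeR, and 1522 had an unadjusted p under 0.05. Without a filter on low counts the log2 fold change was -0.57 (adjusted p = 0.718, edgeR).

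In the OO group all 6 livers had more NNAT than any Control or PFA liver. NNAT was at 3.57 CPM in OO-97, 4.27 in OO-74, 7.48 in OO-99, 7.85 in OO-102, 9.20 in OO-88 and 11.7 in OO-130. These values come from 113 to 213 read pairs per liver. The lowest OO liver was 11.3 times above the highest Control liver. The mean was 7.35 ± 3.05 CPM (SD, n = 6), or 47.6 times the Control mean. With read pairs summed over the pigs of a diet, the OO level was 6.62 CPM (95% exact Poisson interval 6.23 to 7.03) and the Control level 0.165 CPM (0.112 to 0.235). These intervals cover counting error only. The log2 fold change of the fit was 5.47 (SE 0.46), a 44.4-fold higher level, and it ranked 2 from the top of the 13831 genes tested.

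In the OO + PFA group NNAT was above all Control livers and below all OO livers. It was at 1.17 CPM in OP-126, 1.38 in OP-137, 1.61 in OP-79, 2.23 in OP-105 and 3.44 in OP-98, from 31 to 80 read pairs per liver. The liver of pig 77, outside the fit, was at 3.18 CPM with 47 read pairs. The gap to the OO livers was narrow: the highest OO + PFA liver, at 3.44 CPM, was just under the lowest OO liver, at 3.57 CPM. The mean was 1.97 ± 0.914 CPM (SD, n = 5), which is 12.7 times the Control mean and 26.8% of the OO mean. The log2 fold change was 3.57 (SE 0.46) against Control, 11.9-fold, and -1.90 (SE 0.39) against OO, a 3.73-fold lower level. Against OO, NNAT ranked 6 from the bottom of the genes tested. Both fold changes are descriptions, and the comparisons with Control share the same Control livers. For OO + PFA against OO, edgeR called 0 of 13831 genes at the adjusted threshold, and 1176 genes had an unadjusted p under 0.05. The contrast of the oil response with and without PFA had a log2 value of -1.31 (SE 0.72), also without a test.

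**Figure D1:**
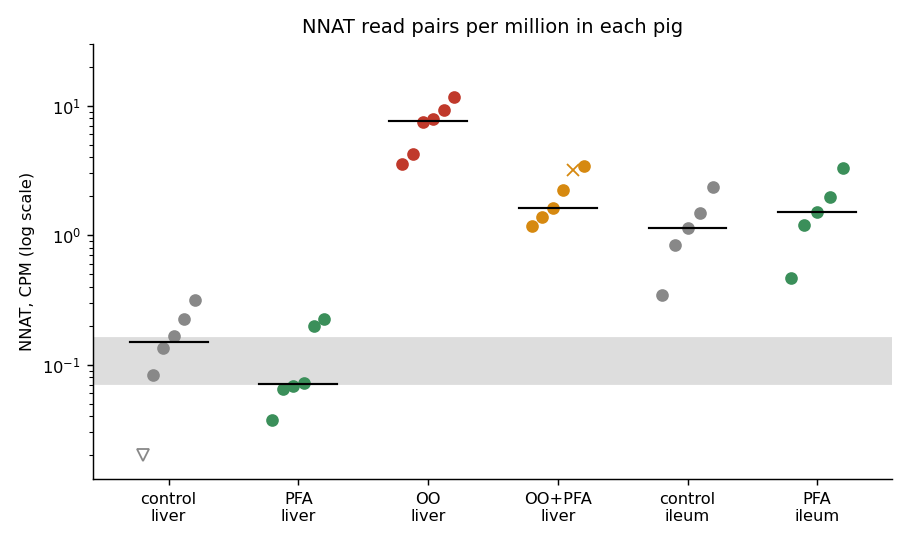
NNAT in CPM (log scale) in each pig by diet and tissue, with a black line at the group median. The open triangle is the Control liver without an NNAT read pair, drawn at the bottom of the axis; the cross is pig 77, left out of the fits and of the median, and the grey band spans the CPM that 3 read pairs stand for. The OO livers lie between 3.57 and 11.7 CPM and the OO + PFA livers between 1.17 and 3.44, while the Control and PFA livers lie at or under 0.317 CPM.

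The liver libraries carry titles of a pair of forms (PigLiv and PL), whose meaning the sources used here do not give. In Control livers the mean NNAT level was 0.0956 CPM in the 4 PigLiv libraries and 0.272 in the 2 PL libraries. The OO livers were at 6.54 CPM (PigLiv, n = 3) and 8.16 CPM (PL, n = 3), above the Control livers within each form. The OO + PFA livers were at 2.11 CPM in 4 PigLiv libraries, and the single PL library in the fit was at 1.38 CPM. Within the forms, the log2 fold change of OO against Control was 6.00 (PigLiv) and 4.80 (PL), that of OO + PFA against Control 4.36 and 2.27, and that of OO + PFA against OO -1.64 and -2.53. For PFA against Control it was 0.20 in PigLiv libraries (adjusted p = 1.00) and -1.51 in PL libraries (adjusted p = 0.356, edgeR), so its direction turned with the form.

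Levels of different genes were compared per length, as CPM per kb of exon, using the 2367 exonic bases that the RefSeq models of NNAT cover together. On this scale NNAT was above 2.603% of the genes with a length in Control livers and above 1.43% in PFA livers. It was above 48.0% of these genes in OO livers and 22.7% in OO + PFA livers. In the ileum it was above 9.74% of the genes in Control pigs and 13.1% in PFA pigs. A length was known for 79.7% of the liver genes and 79.3% of the ileum genes tested, so these shares hold for the named genes and not for all genes. NNAT in OO livers was thus a gene of middle abundance per length, and in the other settings one of the lower-expressed genes.

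The spread of NNAT among OO livers was wide, with an SD of 41.5% of the mean. Markers of adipocytes, a cell type known for NNAT, are given beside it. The summed level of the 5 adipocyte markers found (of 6 listed) was between 2.19 and 4.42 CPM in Control livers, 3.09 and 6.90 in PFA livers, 4.58 and 13.2 in OO livers, and 8.56 and 9.75 in OO + PFA livers. Among the OO livers it was lowest (4.58 CPM) in OO-97 and highest (13.2 CPM) in OO-130, the livers with the lowest and the highest NNAT. Between these extremes the order differed: OO-88, second in NNAT, had 8.92 CPM of adipocyte markers, less than the 11.3 CPM of OO-99. LEP, which encodes the adipocyte hormone leptin, was at 0 in each liver of the fit. PLIN1, a coat protein of lipid droplets, rose in OO livers by a log2 fold change of 1.79 (SE 0.37, adjusted p = 0.00868) and was the only one of 39 marker genes called higher there, beside 1.37% of all genes. The other adipocyte markers tested, FABP4 (1.42, SE 0.41, adjusted p = 0.0598) and LIPE (0.42, SE 0.29, adjusted p = 0.416, edgeR), were not called. PLIN1 was also called in OO + PFA livers (1.82, SE 0.38, adjusted p = 0.0124, edgeR). The part of fat cells in the NNAT level was not tested. A change in the number of cells of a type and a change in RNA per cell cannot be told apart in bulk tissue.

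The depth and the shares of read pairs outside genes or with several alignments also differed among the OO livers. OO-97 had the most read pairs on genes (41469893) and OO-130 the fewest (19839171), and read pairs on no gene made up 10.5% in OO-97 and 7.23% in OO-130. Read pairs with several alignments made up 11.6% in OO-130 and 6.87% in OO-88, the livers with the most NNAT, and from 3.16% to 3.79% in the other 4. In pig 77, left out of the fits, this share was 23.2%. The part of these measures in the NNAT level was not tested.

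Markers of the other cell types in which NNAT is known were low in all livers. The 12 neuron markers summed to between 3.02 and 6.56 CPM, with VIP at 0 in the livers of every diet. The 9 endocrine cell markers found summed to between 0.833 and 3.07 CPM, with SCG2 and NEUROD1 at 0. The 9 pancreas markers found summed to between 1.01 and 7.23 CPM, and GCG, SST, PPY and PNLIP were at 0. INS, the insulin gene, was among those found and had read pairs in some liver of every diet. The ranges of the OO livers overlapped those of the Control livers for all these lists. The 8 hepatocyte markers reached between 88910 and 208400 CPM in the livers, against 3819 to 8663 CPM in the ilea. Of the 39 marker genes of 9 lists, SERPINA1, a hepatocyte product, was the only one called lower in OO livers (log2 fold change -1.25, adjusted p = 0.0150, edgeR), beside 1.34% of all genes. In OO + PFA livers PLIN1 and the apolipoprotein gene APOA4, an enterocyte marker also made by liver, were called higher, and 0 of the 39 were called lower, beside 4.09% and 0.991% of all genes. The enterocyte list summed to 669.5 CPM in 1 of these livers, with a median of 32.3 CPM over the 5.

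The genes with the pattern most like that of NNAT over the 23 livers were found next. Likeness was measured as Pearson's r of log2 CPM over 23 livers, which share the 4 diets, and is given as a description. The leading gene was DHRS4, a reductase that acts on retinal, with r = 0.97. The gene at rank 2 has no symbol and is left out. The next named genes were ACADVL (0.93), which starts the mitochondrial oxidation of very-long-chain fatty acids, and RETSAT (0.93), a retinol saturase. ECH1 (0.92), an isomerase of unsaturated fatty acids, and CPT1A (0.92), which makes the carnitine esters that enter the mitochondrion, came next. Among all genes the 99th percentile of r was 0.70.

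DHRS4, like NNAT, was highest in OO livers and next in OO + PFA livers, while its mean in PFA livers was slightly above that in Control livers, where NNAT had the opposite order. DHRS4 was at 53.6 ± 7.13 CPM (SD, n = 6) in Control livers and 55.7 ± 9.11 (SD, n = 6) in PFA livers. It was at 626.7 ± 256.3 CPM (SD, n = 6) in OO livers and 277.8 ± 26.8 (SD, n = 5) in OO + PFA livers. The OO livers with the lowest and the highest NNAT, OO-97 and OO-130, also had the lowest (332.0 CPM) and the highest DHRS4 (1088 CPM). OO-130 was also the highest OO liver for ACADVL, RETSAT and ECH1, but not for CPT1A. These livers were also the OO libraries with the most (OO-97) and the fewest (OO-130) read pairs on genes. Unlike NNAT, DHRS4 was well counted in Control livers, with at least 1028 read pairs in each. Its log2 fold change was 3.55 (SE 0.21) in OO and 2.37 (SE 0.20) in OO + PFA livers, against 5.47 and 3.57 for NNAT. The other 4 genes had log2 fold changes between 0.80 and 1.72 in OO livers and between 0.49 and 1.43 in OO + PFA livers.

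**Figure D2:**
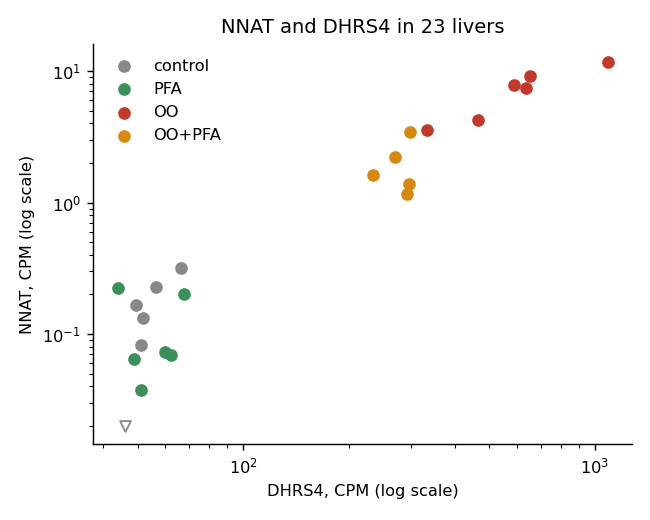
NNAT against DHRS4 in 23 livers, both in CPM on log scales, each point a pig coloured by diet. The Control and PFA livers form a cloud at the lower left, with the Control liver without NNAT read pairs drawn as an open triangle at the bottom, and the OO + PFA and OO livers follow to the upper right, with OO-130 highest in both genes.

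When the mean of the diet was subtracted first, other genes led. Genes without a symbol are again left out. TLN2, a talin of the cell skeleton, was the first with a symbol, at rank 2. It had r = 0.71 with NNAT over the deviations of 23 livers. CYB5RL followed with 0.69, SERPIND1, a plasma inhibitor of thrombin, with 0.67, CYP2A19, a cytochrome P450, with 0.66, and ALDH3A2, which oxidizes fatty aldehydes, with 0.66. The 99th percentile over all genes was 0.49. On this measure ECH1 reached 0.62, DHRS4 0.55, ACADVL 0.44, RETSAT 0.27 and CPT1A 0.21. Over the deviations of the 11 oil-fed livers alone the values were 0.69 for ECH1, 0.73 for DHRS4, 0.61 for ACADVL, 0.74 for RETSAT and 0.21 for CPT1A. There TLN2 had 0.53, CYB5RL 0.76, SERPIND1 0.71, CYP2A19 0.61 and ALDH3A2 0.57. No percentile over all genes was taken for these 11 livers. Without subtraction of the diet means, r over 23 livers was -0.53 for TLN2, 0.37 for CYB5RL, -0.38 for SERPIND1, -0.40 for CYP2A19 and 0.58 for ALDH3A2. The deviations of Control and PFA livers rest on few NNAT read pairs.

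The 8 neighbours of NNAT on chromosome 17 that could be tested did not pass the test in the oil-fed livers. The 5 nearest genes on each side with a symbol in the count files lie between 101.1 kb and 557.2 kb away, and 8 of the 10 passed the filter on low counts. RefSeq lists 14 protein-coding genes in this span beside NNAT, and BLCAP, MANBAL, MROH8 and TLDC2 were not matched to a row and are not analysed here. In OO against Control 0 of the 8 were called, beside 2.71% of all genes (1.37% higher and 1.34% lower). Their median log2 fold change was 0.01, and that of all genes was 0.06. The values ran from -0.17 (SE 0.15) for TTI1, a partner of the large PI3K-like kinases, to 0.46 (SE 0.26) for TGM2, a transglutaminase that cross-links proteins, with adjusted p between 0.303 and 0.910 (edgeR). In OO + PFA against Control 0 of the 8 were called, beside 5.08% of all genes (4.09% higher and 0.991% lower), and the smallest adjusted p was 0.0946, for CTNNBL1, a splicing factor (log2 fold change -0.39, SE 0.14).

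The closest of these genes on either side were SRC, which encodes a tyrosine kinase, 101.1 kb before NNAT, and CTNNBL1, 180.4 kb after it. SRC had a log2 fold change of 0.15 (SE 0.15) in OO livers and 0.14 (SE 0.16) in OO + PFA livers. CTNNBL1 had -0.11 (SE 0.13) in OO livers. The remaining neighbours tested, SAMHD1, RBL1, RPN2 and RPRD1B, had log2 fold changes between -0.15 and 0.11 in OO livers. GHRH, the gene of growth hormone releasing hormone, had 0 read pairs in each library of the fits. VSTM2L had 0 read pairs in the livers and from 2 to 11 in each ileum.

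**Figure D3:**
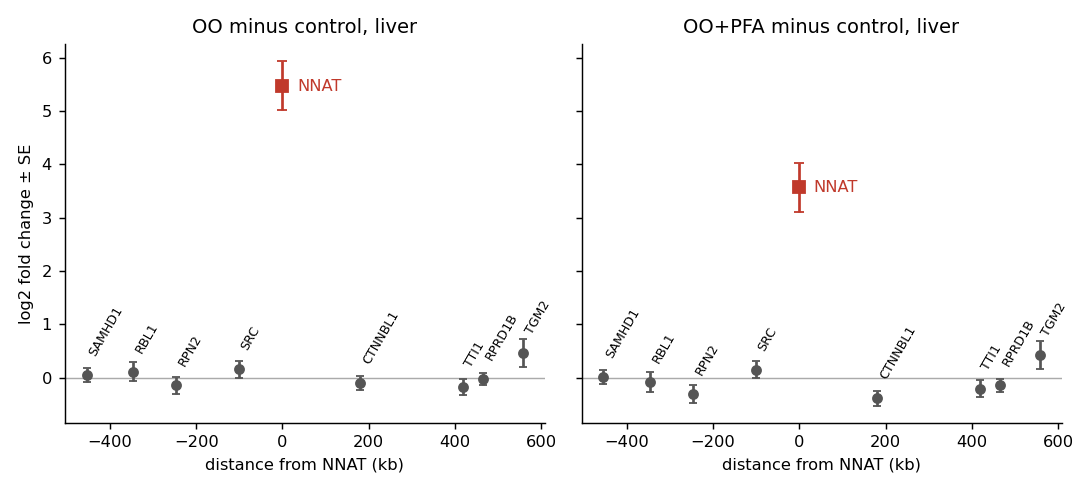
Log2 fold change (bars, SE of the fit) in liver against the distance from NNAT in kb, for NNAT (red square) and 8 neighbours (grey), in OO against Control (left) and OO + PFA against Control (right). NNAT stands at 5.47 and 3.57, and the neighbours lie between -0.39 and 0.46.

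Genes that act where neuronatin is placed, in the calcium store of the endoplasmic reticulum, were examined next. Of 9 calcium pump genes and small membrane regulators of pumps, 4 were matched and 2 passed the filter in the liver, both pumps. ATP2A2, the pump of most tissues, had a log2 fold change of -0.24 (SE 0.18, adjusted p = 0.483) in OO livers. ATP2A3 had 0.58 (SE 0.28, adjusted p = 0.227, edgeR). Without the liver OO-97, ATP2A2 was called lower (-0.47, SE 0.15, adjusted p = 0.0453). In OO + PFA livers the values were -0.42 (SE 0.19, adjusted p = 0.197) for ATP2A2 and 0.61 (SE 0.29, adjusted p = 0.206) for ATP2A3.

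The release channels, calcium entry sensors and calcium-binding proteins of the store were represented by 15 tested genes. In OO livers 0 of the 15 were called in either direction, beside 2.71% of all genes. Their median log2 value was -0.03, and that of all genes 0.06. The members with the smallest adjusted p were ITPR3, an inositol trisphosphate receptor (-0.24, adjusted p = 0.344), the entry channels ORAI1 (0.41, 0.357) and ORAI2 (0.37, 0.434), and STIM1, which senses the filling of the store (0.23, 0.422). In OO + PFA livers STIM1 rose by a log2 fold change of 0.56 (SE 0.16, adjusted p = 0.0465, edgeR) and was the 1 member called, beside 5.08% of all genes. The list had a median of -0.16 there.

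Signal peptidase and the translocon, which move new proteins into the endoplasmic reticulum, were represented by 14 tested genes. In OO livers 0 of the 14 were called, beside 2.71% of all genes, and 4 had a positive sign. The median log2 fold change was -0.10. The smallest adjusted p-values belonged to the channel genes SEC61A2 (-0.22, adjusted p = 0.217) and SEC61A1 (-0.21, 0.398), to SSR2 of the translocon-associated complex (-0.25, 0.231) and to the signal peptidase subunit SEC11C (-0.31, 0.331). In OO + PFA livers 0 were called, beside 5.08% of all genes, with a median of -0.18 and the smallest adjusted p at 0.0585 for SSR2.

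Other genes that are imprinted in mammals were looked at because NNAT is imprinted. Of 34 listed genes, 27 were matched and 23 tested in the liver. In OO livers 0 of the 23 were called, beside 2.71% of all genes. The median log2 fold change was 0.16, and that of all genes 0.06. Without OO-74 or without OO-97 the count was 2 and 3. In OO + PFA livers 2 were called higher and 0 lower, beside 4.09% of all genes called higher: CDKN1C, an inhibitor of the cell cycle (1.43, SE 0.38, adjusted p = 0.0337), and GRB10, an adaptor that restrains insulin signalling (0.69, SE 0.18, adjusted p = 0.0309, edgeR). The same genes had values of 0.98 (SE 0.37, adjusted p = 0.129) and 0.50 (SE 0.17, adjusted p = 0.103) in OO livers. The order of OO and OO + PFA was thus opposite to that of NNAT for both, although the difference of the diets was not called for any gene.

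PHLDA2 and DLK1 had the largest fold changes of the list in OO livers, and neither was called. PHLDA2, which limits placental growth, had a log2 fold change of 2.46 (SE 0.75, adjusted p = 0.0715). DLK1, which holds back the maturing of fat cells, had 2.44 (SE 0.84, adjusted p = 0.101). PHLDA2 ranged from 0.189 to 6.55 CPM among OO livers (median 0.982) and from 0.166 to 0.793 among Control livers (median 0.375), so the groups overlapped. DLK1 ranged from 1.55 to 17.3 CPM among OO livers and from 0.0755 to 3.63 among Control livers, with overlap too. For both, the highest OO liver was OO-130, the liver with the most NNAT and the OO library with the fewest read pairs on genes. PHLDA2 was called without OO-74 (2.68, adjusted p = 0.0360) and without OO-97 (2.72, adjusted p = 0.0232). In OO + PFA livers the values were 2.41 (SE 0.77, adjusted p = 0.0630) for PHLDA2 and 1.82 (SE 0.86, adjusted p = 0.208) for DLK1.

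**Figure D4:**
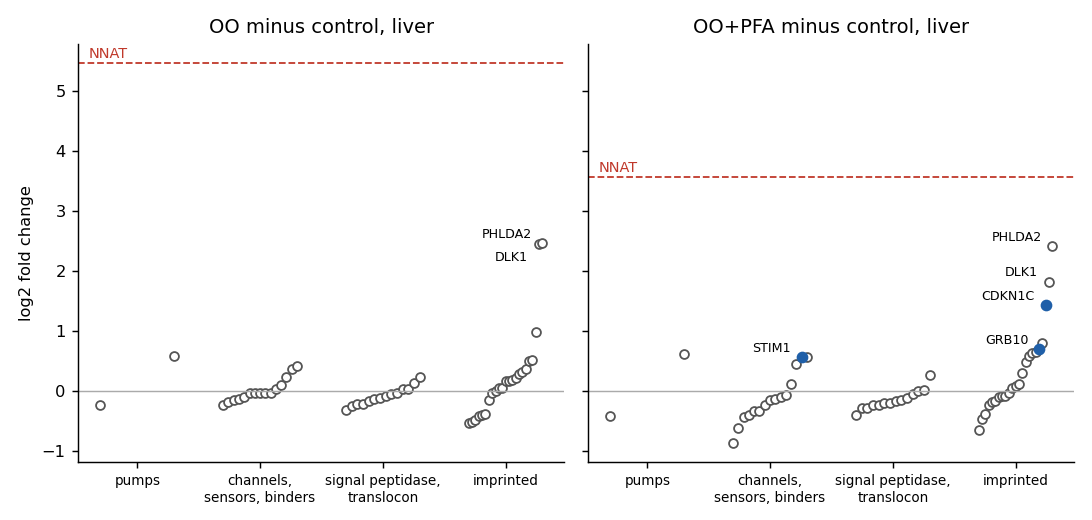
Log2 fold change in liver of each tested gene of the calcium pump, calcium channel, signal peptidase and imprinted gene lists, in OO against Control (left) and OO + PFA against Control (right), sorted by value within a list. Filled points passed the adjusted threshold (0 on the left; STIM1, GRB10 and CDKN1C on the right), and the dashed line is NNAT.

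In the ileum NNAT was present in all 10 pigs. Control ilea had 0.343 CPM (C-80), 0.844 (C-100), 1.13 (C-71), 1.47 (C-92) and 2.36 (C-110), from 9 to 44 read pairs. PFA ilea had 0.471 CPM (P-138), 1.21 (P-107), 1.52 (P-134), 1.99 (P-75) and 3.33 (P-95), from 9 to 77 read pairs. The groups overlapped over most of their range, and the highest ileum, P-95, belonged to the PFA group. The means were 1.23 ± 0.756 CPM (SD, n = 5) and 1.70 ± 1.06 CPM (SD, n = 5).

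PFA against Control gave a log2 fold change of 0.49 (SE 0.53, adjusted p = 0.991) in the ileum by edgeR. The exact permutation test over pigs gave p = 0.476 (two-sided). Without P-95, the ileum with the most NNAT, the log2 fold change was 0.09, and without C-110, the Control ileum with the most, it was 0.87. EdgeR called 0 of 14300 genes at the adjusted threshold, and 401 had an unadjusted p under 0.05. None of the calcium, signal peptidase, imprinted or neighbour genes tested was called in the ileum. The difference between the PFA effects in ileum and liver was 0.58 on the log2 scale (SE 0.92, adjusted p = 0.994, edgeR), smaller than its error.

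Within the same pigs, by CPM scaled within each tissue, NNAT was higher in ileum than in liver in 10 of 10 pigs. The values of C-80 were close, at 0.343 CPM in ileum and 0.227 in liver, from 9 and 6 read pairs. The count was not repeated with both tissues scaled together, so it may depend on the scaling. In Control pigs the log2 difference between ileum and liver was 2.17 (SE 0.62, adjusted p = 0.00417), a 4.50-fold higher level in the ileum. In PFA pigs it was 2.74 (SE 0.63, adjusted p = 0.000674), or 6.70-fold (edgeR's quasi-likelihood test over 14982 genes, libraries of both tissues scaled together). In this fit NNAT passed the filter on low counts only through the ilea. They had 9 to 77 read pairs, against 0 to 6 in the livers. The Control livers also took part in the choice of NNAT, so the adjusted p in Control pigs is not that of an independent test. Without a filter the log2 differences were 2.18 (adjusted p = 0.00482) and 2.76 (adjusted p = 0.000738, edgeR). The tissues differ widely: 69.5% of all genes were called in Control pigs and 69.3% in PFA pigs, with 36.4% higher and 33.1% lower in the ileum of Control pigs and 35.9% higher and 33.5% lower in that of PFA pigs, so NNAT shared its direction with many genes. Without scaling beyond the total count the log2 differences were 3.24 and 3.90, because that setting moved the median of all genes by 1.10 and 1.13 towards the ileum. The share of higher genes among those called then went from 52.3% to 84.8% in Control pigs and from 51.7% to 84.8% in PFA pigs. RNA integrity, for which a lower minimum was accepted in liver, and the form of the library titles went with the tissue and cannot be told apart from it.

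The order of the group means was OO liver, OO + PFA liver, PFA ileum, Control ileum, Control liver and PFA liver. The ileum of either diet overlapped with the OO + PFA livers, which ranged from 1.17 to 3.44 CPM, and lay below the OO livers, whose lowest value was 3.57 CPM. The Control and PFA livers overlapped. These levels were scaled separately in each tissue, and no test was made between an oil-fed liver and an ileum.

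Levels of NNAT in the ileum went together with markers of stroma, endocrine cells and neurons. The macrophage, enterocyte, pancreas, cholangiocyte and hepatocyte lists were not compared with NNAT there. The same correlations were not computed for all genes, so whether these relations are particular to NNAT was not tested. Over the 10 ilea, log2 CPM of NNAT was set against the log2 summed CPM of 4 marker lists and against NNAT in the liver of the same pig, 5 relations in all, with permutation p-values adjusted over the 5. For the 6 fibroblast and stellate cell markers, among them the collagen genes COL1A1 and COL3A1, Pearson's r was 0.91 (permutation p = 0.00035, adjusted to 0.00175). Spearman's rho was 0.94 (permutation p = 0.0002, adjusted to 0.001). Leaving out the 2 pigs farthest from the median of the markers gave r = 0.95. The summed markers ran from 3318 CPM in C-80, the ileum with the least NNAT, to 9597 CPM in C-110, which had 2.36 CPM of NNAT. P-95, with the most NNAT, had 7659 CPM.

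The endocrine cell markers, genes of hormone-storing granules such as CHGA, gave r = 0.82 (permutation p = 0.0032, adjusted to 0.008). Their rho was 0.84 (permutation p = 0.00371, adjusted to 0.00928), and leaving out the 2 farthest pigs gave r = 0.71. The neuron markers gave r = 0.74 (permutation p = 0.0151, adjusted to 0.0251). Their rho was 0.71 (permutation p = 0.0269, adjusted to 0.0449), and leaving out the 2 farthest pigs gave r = 0.85. The neuron list summed to between 56.3 and 140.9 CPM and the endocrine list to between 76.4 and 130.8 CPM in the ilea. The lists are not separate measures, as they shared high and low pigs. C-110 had 9597 CPM of fibroblast and stellate, 130.8 of endocrine and 139.9 of neuron markers, and C-80 had 3318, 77.2 and 62.1. P-107 differed, with the highest neuron sum (140.9 CPM) but 5119 CPM of fibroblast and stellate markers. The sums and NNAT come from the same libraries and share their scaling, and each diet had too few pigs for a value of its own. The part of the cell makeup of each piece of ileum in these relations was not tested.

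The relation with the adipocyte markers did not pass the test. Pearson's r was 0.42 (permutation p = 0.256, adjusted to 0.320). Spearman's rho was 0.09 (permutation p = 0.810, adjusted to 0.810). Leaving out the 2 farthest pigs gave r = -0.37. P-95, the ileum with the most NNAT, stood apart with an adipocyte sum of 111.2 CPM, of which ADIPOQ, the gene of the fat cell hormone adiponectin, made up 78.2 CPM. ADIPOQ was at or under 0.439 CPM in the other 9 ilea, whose adipocyte sums were between 5.65 and 12.2 CPM. NNAT in the liver of the same pig gave r = -0.09 (permutation p = 0.801, adjusted to 0.801). Its rho was -0.12 (permutation p = 0.759, adjusted to 0.810), and leaving out the 2 farthest pigs gave r = 0.15. The liver values of these pigs rest on 0 to 6 read pairs.

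**Figure D5:**
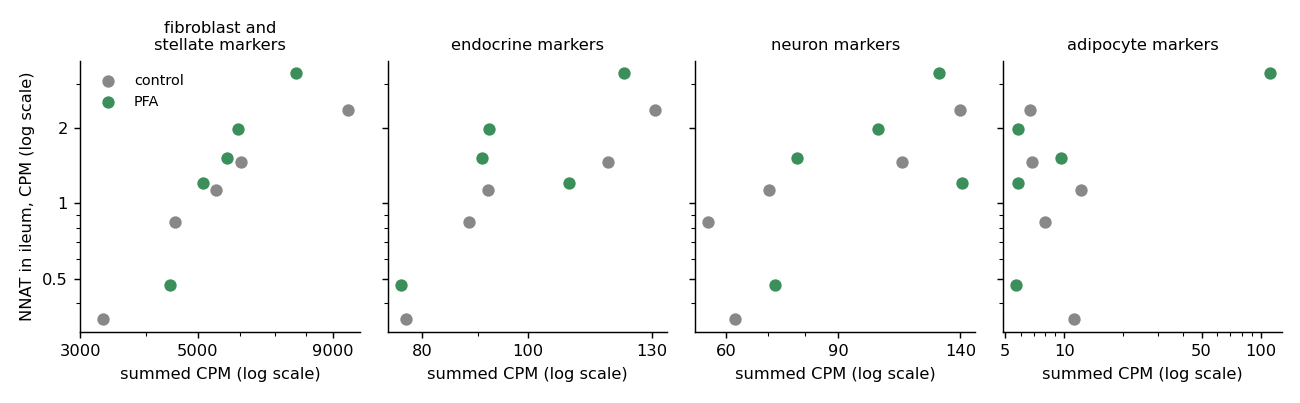
NNAT in each of 10 ilea against the summed CPM of 4 lists of cell type markers, log scales, with points coloured by diet. NNAT rises with the fibroblast and stellate cell markers (r = 0.91), the endocrine markers (0.82) and the neuron markers (0.74), and in the panel of adipocyte markers P-95 lies alone at 111.2 CPM.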

How the data were processed

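The authors deposited, for each library, HTSeq counts of read pairs per Ensembl gene after alignment with STAR 2.6.1d to Sscrofa11.1, as whole numbers without normalization. The annotation release and the strand option were not given in the sources used here. Tables of the whole series hold the same libraries and were not used, and 0 other per-sample columns were present. Totals for read pairs on no gene or several genes were kept out of library sizes: 6.53% to 17.4% of read pairs in the livers and 17.5% to 20.6% in the ilea fell on no gene. Symbols were matched for 14857 of 25880 genes through a gene name table, and 3 genes were named from the primer list of the study. NNAT, its neighbours and the gene lists were chosen with earlier results of these data known.

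Counts were analyzed with edgeR 4.0.16 in R 4.3.3 (TMM scaling, filterByExpr, quasi-likelihood F-test, two-sided, Benjamini-Hochberg adjustment over all genes kept, threshold 0.05) in 3 fits: 23 livers with 4 diets (13831 genes), 10 ilea (14300 genes), and the 20 libraries of the 10 pigs with both tissues (14982 genes). Log2 CPM used a prior count of 2. DESeq2 1.42.0 was an alternative. The fits were tested on simulated counts. Permutation tests used scipy 1.17.1, exact for groups and with 100000 draws for correlations. Ileum and liver libraries with the same number come from the same pig; their deviations from the group means correlated with r from -0.18 to 0.46 over 10 pairs (median 0.13). Genes were named by a fixed rule. It took NNAT in every sample, the 5 nearest genes with a symbol on each side, and the 5 genes with a symbol most like NNAT by each correlation. Each functional list gave up to 4 genes with the smallest adjusted p in OO against Control. Members with a log2 change of at least 2 were added. Members called in OO + PFA, and INS, ADIPOQ, PLIN1, SERPINA1 and APOA4, were named after their values were seen. Coordinates are from RefSeq on Sscrofa11.1, the build of the counts. The coding sequence is not reported here. Alternatives were other scaling, no filter, DESeq2, all 24 livers, a term for or a split by the form of the library title, fits of the compared diets alone, and leaving out each pig.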

Additional observations from a re-analysis of the deposited data

How the results depend on the processing

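The direction of the NNAT differences of the oil diets held under the alternatives run: OO against Control between 4.80 and 6.00 on the log2 scale, OO + PFA against Control between 2.27 and 4.36, and OO + PFA against OO between -2.53 and -1.64. Values that moved by more than the SD of pigs within a diet came from splitting the libraries by title form: OO + PFA against Control 4.36 (PigLiv) and 2.27 (PL), and OO + PFA against OO -2.53 (PL). PFA against Control in the liver reversed in PigLiv libraries, at 0.20. The cause was not tested. With each pig left out, the values ran from 5.26 to 5.85 (OO against Control), 3.28 to 3.95 (OO + PFA against Control), -2.19 to -1.72 (OO + PFA against OO), -0.92 to -0.21 (PFA in liver) and 0.09 to 0.87 (PFA in ileum). For the difference of the PFA effects they ran from 0.17 to 0.96. For ileum against liver they ran from 1.80 to 2.47 in Control pigs and from 2.34 to 3.13 in PFA pigs, called in each case. These calls repeat a fit in which NNAT passed the filter on low counts through the ilea, where it is higher. The Control livers also took part in the choice of NNAT, so the calls are no independent support.

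With a replicate block for the pig, ileum against liver was 2.09 (adjusted p = 0.00890) in Control pigs and 2.64 (adjusted p = 0.00203) in PFA pigs, and the difference of the PFA effects 0.55 (adjusted p = 0.968, edgeR). The block changed no call, and its calls have the same limits. Of the lists in OO livers, DESeq2 called 1 imprinted gene (PHLDA2, adjusted p = 0.0118). Leaving out 1 pig gave from 0 to 3 imprinted genes (PHLDA2 and CDKN1C without OO-74, these and GRB10 without OO-97) and from 0 to 1 calcium pump genes. The channel, signal peptidase and neighbour lists had 0 calls under all alternatives run. Alternatives planned for BLCAP were not run, as no row was matched to it. Depth limits NNAT in Control and PFA livers, where 2 of 6 and 4 of 6 libraries had at most 3 read pairs.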
